A study of Rattus norvegicus with 16 samples.

Results

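The genes described are 6 of the cellular antioxidant defence, Nfe2l2, Hmox1, Nqo1, Sod1, Sod2 and Cat, chosen by identifier from the 30560 genes listed. RNA was measured by bulk sequencing in microglia (brain-resident macrophages) taken from rats as primary cells, cultured for 12 days in vitro and of wild type genotype; strain and age are not given in the labels. There were 16 libraries in 4 groups of 4. LPS+ApoA-I cells received lipopolysaccharide (LPS, a bacterial cell wall molecule that activates microglia) at 100 ng/ml for 20 hours. They also received apolipoprotein A-I (the chief high-density lipoprotein component, ApoA-I) at 100 ug/ml. LPS cells received LPS alone, ApoA-I cells ApoA-I alone, and Control cells neither. The 20 hours refer to LPS, and no length or order of the ApoA-I treatment is given here. The identifiers are ENSRNOG00000001548 (Nfe2l2), ENSRNOG00000014117 (Hmox1), ENSRNOG00000012772 (Nqo1), ENSRNOG00000002115 (Sod1), ENSRNOG00000019048 (Sod2) and ENSRNOG00000008364 (Cat). The symbols came with the choice of genes; the RefSeq name table used here pairs 0 of its 47357 entries with Ensembl, so the symbols could not be checked against it, and other genes of the pathway and cell type markers were not analysed here.

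Nfe2l2 encodes Nrf2, the transcription factor that drives many antioxidant and detoxifying genes. Nrf2 is controlled largely at the protein level: Keap1 marks it for degradation in resting cells, and oxidants or electrophiles release it to bind antioxidant response elements, so the amount of its transcript is not a measure of its activity. Hmox1 (heme oxygenase 1, which breaks down heme) and Nqo1 (a quinone reductase) are classical targets of it, and Hmox1 also responds to other signals. Sod1 (in the cytosol) and Sod2 (in mitochondria) convert superoxide to hydrogen peroxide, which catalase, the product of Cat, breaks down in peroxisomes; Sod2 is also a well known target of NF-kB, a transcription factor activated by LPS.

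Total estimated counts were 12304916 to 17262383 per library, and the members' counts ranged from 226 (Cat, library LPS 1) to 75639 (Sod2, library LPS 3). All 6 members were among the 11902 genes with enough counts to be tested. Levels are given as CPM, counts brought to a common library size with TMM (a scaling that assumes most genes keep their level), and between genes as TPM, the authors' values per transcript length. Changes were called at a Benjamini-Hochberg adjusted p under 0.05 over all tested genes in edgeR's quasi-likelihood test. Whether replicates were separate cultures or animals is not in the labels; the p-values then reflect no more than spread among the 16 libraries, part or all of it possibly technical. In bulk RNA, fewer cells with a transcript and less of it per cell cannot be told apart. The median log2 change of all genes in LPS against Control was -0.04 with TMM, -0.42 with library totals only and -0.37 on log2(TPM + 1). In LPS+ApoA-I it was 0.03, 0.18 and 0.13 against LPS, -0.01, -0.30 and -0.30 against ApoA-I and -0.01, -0.24 and -0.25 against Control. In the same order it was -0.00028, 0.06 and 0.06 for ApoA-I against Control. For the interaction, defined below, it was 0.04, 0.13 and 0.07. Small changes are read relative to these.

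The main pattern among the 6 genes was a split in their response to ApoA-I in LPS-treated cells. LPS raised Hmox1, Nqo1 and Sod2 and lowered Cat and Nfe2l2, in a comparison with Control where 74.7% of all tested genes were called. With ApoA-I added, Hmox1 and Nqo1 were 3.26-fold and 2.21-fold lower than with LPS alone (51.4% of tested genes called). Their fitted levels were within 0.14 log2 units of Control by TMM. They were called below Control by 2 other scalings, by which the median of all genes also lay lower. Sod2 was 1.27-fold lower than with LPS alone, a call that those scalings did not give, with the median of all genes higher by them. It remained 5.14-fold above Control. Nfe2l2 moved the other way from its 2 classical targets both in LPS against Control and in LPS+ApoA-I against LPS. Its changes were not extreme: 28.5% of tested genes fell at least as far in the former. In the latter 21.8% rose at least as far.

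**Figure D1:**
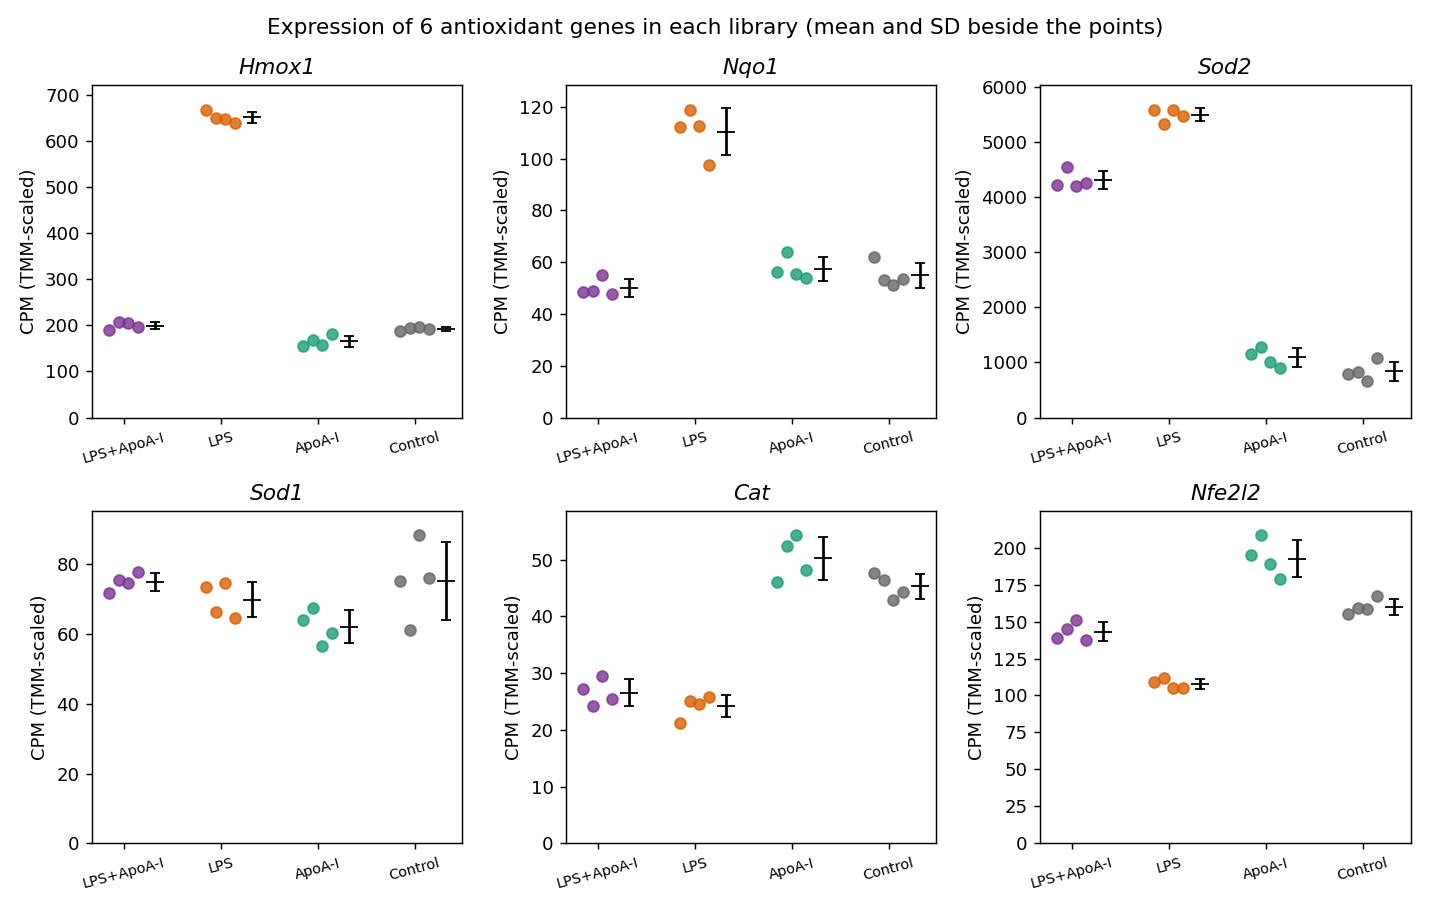
TMM-scaled CPM (vertical axis, starting at 0) of each gene in each of the 16 libraries, with the mean and SD of the 4 libraries of a group beside the points. Hmox1 lay between 639 and 667 CPM in LPS libraries and at 206 CPM or lower in every other library, while Sod2 lay at 4201 CPM or higher in all 8 libraries with LPS.

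Hmox1 had 667, 648, 648 and 639 CPM in the 4 LPS libraries, against 187, 195, 195 and 192 CPM in Control libraries. The groups were far apart, with an SD of 12.1 CPM in LPS and 4.01 CPM in Control libraries (n = 4 each). The log2 fold change was 1.76 (SE 0.05, edgeR adjusted p = 1.1e-18), and 5.55% of tested genes rose at least as far. In LPS+ApoA-I libraries Hmox1 had 190.0, 206, 204 and 197 CPM. All 4 lay below every LPS library, with a log2 fold change against LPS of -1.71 (SE 0.05, edgeR adjusted p = 4.25e-17); 2.18% of tested genes fell at least as far. Against Control the difference was 0.05 log2 units (95% interval -0.05 to 0.15, edgeR adjusted p = 0.354), and the groups overlapped. This last comparison turned with the scaling: with library totals only it was -0.18 (edgeR adjusted p = 0.0173) and on log2(TPM + 1) -0.24 (limma adjusted p = 0.000608), so Hmox1 was then called lower in LPS+ApoA-I than in Control. The median of all genes by those scalings was -0.24 and -0.25, and Hmox1 did not lie below it.

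Nqo1 was also highest in LPS libraries, at lower levels. It had 112, 119, 113 and 97.5 CPM in LPS libraries, against 62.15, 53.1, 51.1 and 53.4 CPM in Control libraries, and the groups did not overlap. The log2 fold change was 1.01 (SE 0.07, edgeR adjusted p = 3.6e-11), with library totals only 0.62 (edgeR adjusted p = 6.53e-08) and on log2(TPM + 1) 0.58 (limma adjusted p = 1.23e-06). In LPS+ApoA-I libraries it had 48.5, 48.9, 55.0 and 47.65 CPM, below every LPS library, with a log2 fold change against LPS of -1.14 (SE 0.08, edgeR adjusted p = 2.7e-11). Against Control the difference was -0.14 (95% interval -0.29 to 0.02, edgeR adjusted p = 0.117), and without the library Control 1 it was -0.07 (edgeR adjusted p = 0.41). It was called with library totals only (-0.37, edgeR adjusted p = 0.00018), on log2(TPM + 1) (-0.42, limma adjusted p = 7.07e-05), without the library LPS+ApoA-I 3 (-0.18, edgeR adjusted p = 0.0485) and with the share of 8 co-varying abundant genes, described with Sod1, as a covariate (-0.16, edgeR adjusted p = 0.0376). With library totals only and on log2(TPM + 1) the median of all genes was -0.24 and -0.25.

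Nfe2l2, which encodes the regulator of these genes, had 109, 112, 105 and 105 CPM in LPS libraries, against 155, 159, 159 and 168 CPM in Control libraries. Every LPS library lay below every Control library, with a log2 fold change of -0.57 (SE 0.05, edgeR adjusted p = 1.35e-09), with library totals only -0.95 (edgeR adjusted p = 5.68e-13) and on log2(TPM + 1) -0.98 (limma adjusted p = 3.35e-11). In LPS+ApoA-I libraries Nfe2l2 had 139, 145, 151 and 137 CPM, between the LPS and Control libraries with no overlap on either side. It was 0.41 log2 units higher than with LPS alone (SE 0.05, edgeR adjusted p = 8.42e-07) and 0.16 log2 units below Control (-0.16, SE 0.05, edgeR adjusted p = 0.00794). The difference from Control was larger with library totals only (-0.39, edgeR adjusted p = 4.12e-06) and on log2(TPM + 1) (-0.43, limma adjusted p = 3.25e-06). The median of all genes also lay lower by those scalings, at -0.24 and -0.25. ApoA-I alone raised Nfe2l2: 195, 208, 189 and 179 CPM in ApoA-I libraries stood above all Control libraries, with a log2 fold change of 0.27 (SE 0.05, edgeR adjusted p = 0.00409). That call was missed when only the 8 libraries of the 2 groups were fitted (0.27, edgeR adjusted p = 0.0509).

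Cat had 21.3, 25.1, 24.6 and 25.8 CPM in LPS libraries, against 47.7, 46.4, 42.8 and 44.4 CPM in Control libraries. LPS lowered it to 0.535 of the Control level by the fitted fold (log2 fold change -0.90, SE 0.08, edgeR adjusted p = 6.09e-10). Of tested genes 21.1% fell at least as far as Cat. Unlike Hmox1 and Nqo1, it had no call for ApoA-I in LPS-treated cells with TMM scaling: LPS+ApoA-I libraries had 27.2, 24.1, 29.5 and 25.5 CPM, overlapping the LPS libraries (log2 fold change 0.13, 95% interval -0.04 to 0.30, edgeR adjusted p = 0.187). With library totals only the same difference was 0.28 (edgeR adjusted p = 0.0168) and on log2(TPM + 1) 0.26 (limma adjusted p = 0.0229), while it was 0.08 without the library LPS 1 (edgeR adjusted p = 0.469) or LPS+ApoA-I 3 (edgeR adjusted p = 0.475). In ApoA-I libraries Cat had 46.0, 52.5, 54.3 and 48.2 CPM, overlapping Control (log2 fold change 0.15, edgeR adjusted p = 0.271).

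Sod2 had the highest mean TPM of the 6 genes in every group and was the one LPS raised furthest. It had 5571, 5331, 5586 and 5463 CPM in LPS libraries, against 785, 818, 670 and 1082 CPM in Control libraries, a log2 fold change of 2.71 (SE 0.12, edgeR adjusted p = 1.96e-15); 3.14% of tested genes rose at least as far. This single gene held 0.464% ± 0.0255 of all counts in LPS libraries and 0.0924% ± 0.0196 in Control libraries (SD, n = 4 each). In LPS+ApoA-I libraries it had 4226, 4551, 4201 and 4247 CPM, below all LPS libraries and far above all Control libraries. The difference from LPS was -0.35 log2 units (SE 0.11, edgeR adjusted p = 0.01), with library totals only -0.20 (edgeR adjusted p = 0.132) and on log2(TPM + 1) -0.21 (limma adjusted p = 0.163), so that this fall was not called under the last 2. By these the median of all genes lay at 0.18 and 0.13, against 0.03 with TMM. With TMM 20.1% of tested genes fell at least as far as Sod2 in this comparison.

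ApoA-I alone gave Sod2 1162, 1288, 1016 and 897 CPM, overlapping the Control libraries (log2 fold change 0.38, SE 0.11, edgeR adjusted p = 0.0506). This value lay at the threshold, and 6 of its 26 alternatives were past it. Without the library Control 4, the highest of its group, it was 0.53 (edgeR adjusted p = 0.000628), and without ApoA-I 4, the lowest of its group, 0.46 (edgeR adjusted p = 0.012). It was also called by DESeq2 (0.38, adjusted p = 0.0471), with RLE scaling (0.38, edgeR adjusted p = 0.0435), with library totals only (0.43, edgeR adjusted p = 0.0281) and with no filter on low counts (0.38, edgeR adjusted p = 0.00929). The lowest value was 0.29, without the library Control 3 (edgeR adjusted p = 0.17), and the highest adjusted p was 0.175, with only these groups fitted. The median of all genes was 0.06 with library totals only, against -0.00028 with TMM.

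Sod1, the cytosolic counterpart, had 73.6, 66.4, 74.5 and 64.7 CPM in LPS libraries, against 75.1, 61.2, 88.3 and 76.1 CPM in Control libraries, and the groups overlapped. The log2 difference was -0.11 (95% interval -0.28 to 0.06, edgeR adjusted p = 0.244) with TMM, but -0.49 with library totals only (edgeR adjusted p = 3.19e-06) and -0.52 on log2(TPM + 1) (limma adjusted p = 2.11e-06), where it was called lower; the median of all genes also lay lower by those scalings. Among the Control libraries, leaving out Control 2 gave -0.20 (edgeR adjusted p = 0.021) and leaving out Control 3 gave -0.02 (edgeR adjusted p = 0.827). LPS+ApoA-I libraries had 71.7, 75.5, 74.5 and 77.8 CPM and ApoA-I libraries 63.9, 67.6, 56.5 and 60.3 CPM. The difference between these, 0.27 log2 units (SE 0.08, edgeR adjusted p = 0.00644), reversed to -0.02 with library totals only and -0.11 on log2(TPM + 1). LPS+ApoA-I differed from LPS by 0.10 (edgeR adjusted p = 0.328), with library totals only by 0.25 (edgeR adjusted p = 0.00736) and without the library LPS 4 by 0.07 (edgeR adjusted p = 0.573). ApoA-I differed from Control by -0.28 (edgeR adjusted p = 0.0584), which was called by DESeq2 (-0.27, adjusted p = 0.0287), with no filter on low counts (-0.28, edgeR adjusted p = 0.0306) and without the library Control 2 (-0.36, edgeR adjusted p = 0.00926) or ApoA-I 2 (-0.32, edgeR adjusted p = 0.0407). It was -0.19 without the library Control 3 (edgeR adjusted p = 0.237), -0.18 on log2(TPM + 1) (limma adjusted p = 0.163) and -0.16 (edgeR adjusted p = 0.403) with the covariate described next.

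One feature of the libraries varied within groups. A set of 8 abundant genes that varied together within groups held from 1.61% to 12.8% of a library's counts, 9.71% ± 2.48 in LPS+ApoA-I, 8.74% ± 4.50 in LPS, 3.91% ± 3.71 in ApoA-I and 7.87% ± 3.21 in Control libraries (SD, n = 4 each). Over the 16 libraries, as deviations from group means, Sod1 had a Pearson's r of 0.60 with the log2 share (permutation p = 0.0154, 0.0926 after adjustment over the 6 genes) and a Spearman's rho of 0.64 (permutation p = 0.0200, adjusted 0.120). Without ApoA-I 2 and LPS 4, the 2 libraries whose shares deviated furthest from their groups, r was 0.56. The relation did not pass the adjustment, nor did that of any other member, of which Nqo1 came next (r = 0.60, permutation p = 0.0440, adjusted 0.132; rho = 0.44, permutation p = 0.127, adjusted 0.380; r = 0.25 without the same 2 libraries, on which this relation rests). With the share as a covariate Sod1 differed between LPS+ApoA-I and ApoA-I by 0.12 (edgeR adjusted p = 0.247), so its call there was lost.

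Because both superoxide dismutases were read in the same library, their ratio does not depend on how libraries were scaled. The ratio of Sod2 TPM to Sod1 TPM was 6.75, 7.08, 6.60 and 6.37 in LPS+ApoA-I libraries and 8.67, 9.17, 8.59 and 9.84 in LPS libraries. It was 2.15, 2.22, 1.98 and 1.65 in ApoA-I libraries and 1.21, 1.55, 0.866 and 1.64 in Control libraries. No library of any group overlapped with those of another, although ApoA-I 4 and Control 4 lay close together. On the log2 scale of counts LPS exceeded Control by 2.83 and LPS+ApoA-I exceeded ApoA-I by 1.72. LPS+ApoA-I lay below LPS (-0.45), and ApoA-I lay above Control by 0.66. Each of these, and the 2.38 between LPS+ApoA-I and Control, had a two-sided exact permutation p of 0.0286, the smallest that 4 against 4 allows, which remained 0.0286 after adjustment over the 5 comparisons. The ratio shows unequal change and not which of the pair moved. It was not adjusted for the share of the 8 co-varying genes, which was 3.91% ± 3.71 in ApoA-I and 7.87% ± 3.21 in Control libraries (SD, n = 4 each).

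**Figure D2:**
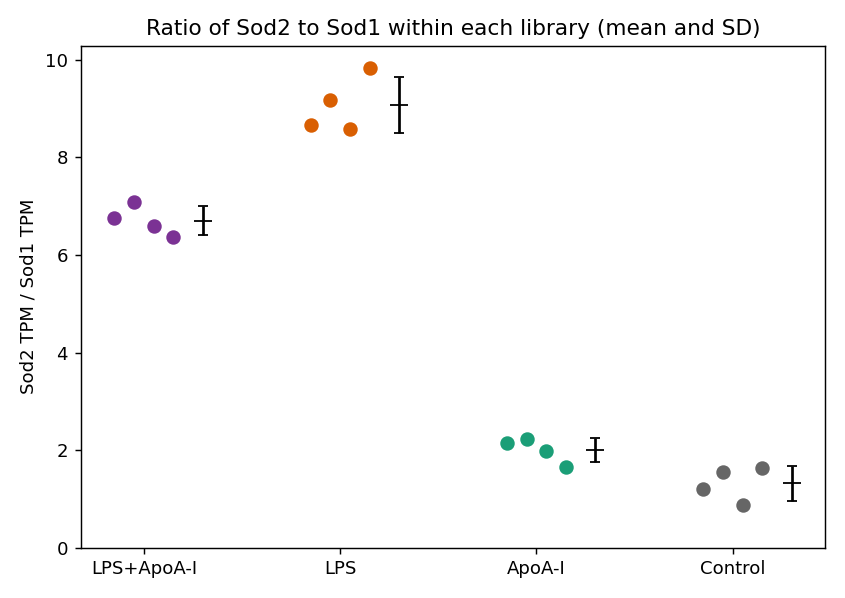
Ratio of Sod2 TPM to Sod1 TPM in each library (vertical axis, starting at 0), with the mean and SD of each group beside its 4 points. LPS+ApoA-I libraries lay between 6.37 and 7.08, LPS libraries between 8.59 and 9.84, and all libraries without LPS at 2.22 or lower.

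The promoters of this pair differed in letters as well, and are shown because the pair responded unequally, with that of Nqo1 beside them as a gene whose rise was lost with ApoA-I. RefSeq (build GRCr8) gave a promoter for 5 of the 6 members, all but Hmox1. The sequences are the 250 bases before the gene start used in RefSeq's promoter table, 5′ to 3′. For Sod1 81 of these bases, and for Nfe2l2 all 250, lie inside the span annotated for the gene, which begins further upstream; for Sod2, Nqo1 and Cat the window ends where the span begins. Capitals mark the antioxidant response element core TGACNNNGC, the TATA box TATAAA and the GC box GGGCGG, on either strand; the last 2 were searched after the letters had been seen.
Sod2 (chr1:50050169-50050418, minus strand): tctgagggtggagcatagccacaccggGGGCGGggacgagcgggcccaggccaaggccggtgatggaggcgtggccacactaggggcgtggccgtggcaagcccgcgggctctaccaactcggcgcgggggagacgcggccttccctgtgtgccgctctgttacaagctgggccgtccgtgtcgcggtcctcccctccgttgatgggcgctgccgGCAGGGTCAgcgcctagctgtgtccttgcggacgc
Sod1 (chr11:42942573-42942822, plus strand): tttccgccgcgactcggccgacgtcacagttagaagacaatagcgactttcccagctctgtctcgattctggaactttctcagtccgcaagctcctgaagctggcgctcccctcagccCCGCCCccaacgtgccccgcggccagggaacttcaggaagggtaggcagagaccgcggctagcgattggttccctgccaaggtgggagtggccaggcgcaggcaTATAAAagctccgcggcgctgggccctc
Nqo1 (chr19:52220268-52220517, minus strand): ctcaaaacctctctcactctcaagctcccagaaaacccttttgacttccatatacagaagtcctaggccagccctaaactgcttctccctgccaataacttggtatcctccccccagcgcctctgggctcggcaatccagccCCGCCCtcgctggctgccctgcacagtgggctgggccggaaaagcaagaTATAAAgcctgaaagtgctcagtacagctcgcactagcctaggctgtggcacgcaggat

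Sod2 held the response element core once, on the opposite strand and starting at position -35 from that start, and no TATAAA. Sod1 and Nqo1 each held TATAAA once, starting at -28 (within the annotated span) for Sod1 and at -59 for Nqo1, and no response element core. Cat and Nfe2l2 held neither, and none of the 5 held the NF-kB site in this window. Among all 33469 RefSeq promoters of this length, 10.1% held the response element core, 6.33% the NF-kB site, 12.9% TATAAA and 30.5% the GC box. Nfe2l2 held the GC box 6 times, Sod2, Sod1 and Nqo1 held 1 each, and Cat held none. The G and C content was 71.6% for Sod2, 63.2% for Sod1 and 56.4% for Nqo1, against a median of 51.2% over all promoters. For Nfe2l2 it was 69.2% and for Cat 58.8%, so all 5 lay above that median. A match describes the letters only, and elements outside the window were not searched.

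Counted by comparison, LPS alone raised 3 of the 6 members (Hmox1, Nqo1, Sod2) and lowered 2 (Cat, Nfe2l2). Of all tested genes 74.7% were called, 36.3% higher and 38.4% lower, so 5 calls among 6 genes are near the background. The median log2 change was 0.45 over the members and -0.04 over all tested genes.

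For ApoA-I on top of LPS, the comparison with LPS alone had lower Hmox1, Nqo1 and Sod2 and higher Nfe2l2, 4 of the 6 members, where 51.4% of all tested genes were called (26.4% higher and 24.9% lower). The median was -0.12 over the members and 0.03 over all genes. Both comparisons share the LPS libraries.

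The response to LPS when ApoA-I was present came from LPS+ApoA-I and ApoA-I libraries, whose group means the comparison of LPS with Control does not use. The scaling and the estimate of spread were shared by all 16 libraries. All 6 members were called, 3 higher (Sod2, and Hmox1 and Sod1, which reversed with other scalings) and 3 lower (Nqo1, Cat, Nfe2l2), where 69.4% of tested genes were called, 34.5% higher and 34.8% lower. With TMM the change was 0.27 for Hmox1 (SE 0.05, edgeR adjusted p = 4.06e-05), against 1.76 without ApoA-I, and -0.20 for Nqo1 (SE 0.08, edgeR adjusted p = 0.0261), against 1.01. That of Hmox1 reversed to -0.02 with library totals only and -0.09 on log2(TPM + 1). That of Nqo1 was -0.48 with library totals only (edgeR adjusted p = 5.67e-06), -0.56 on log2(TPM + 1) (limma adjusted p = 2.38e-06) and -0.32 with the share of the 8 co-varying genes as a covariate (edgeR adjusted p = 0.002). With TMM it lost its call without any 1 of the libraries ApoA-I 2 (-0.14, edgeR adjusted p = 0.11), LPS+ApoA-I 1 (-0.18, 0.0613), LPS+ApoA-I 2 (-0.19, 0.0591) or LPS+ApoA-I 4 (-0.17, 0.0729). Sod2 rose by 1.98 with ApoA-I (SE 0.11, edgeR adjusted p = 6.41e-13), against 2.71 without it. Cat had changes of -0.92 and -0.90 and Nfe2l2 of -0.43 and -0.57 in the same order; that of Nfe2l2 with ApoA-I was -0.72 with library totals only and -0.76 on log2(TPM + 1). Over the 6 members the median was 0.04, and over all genes -0.01.

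**Figure D3:**
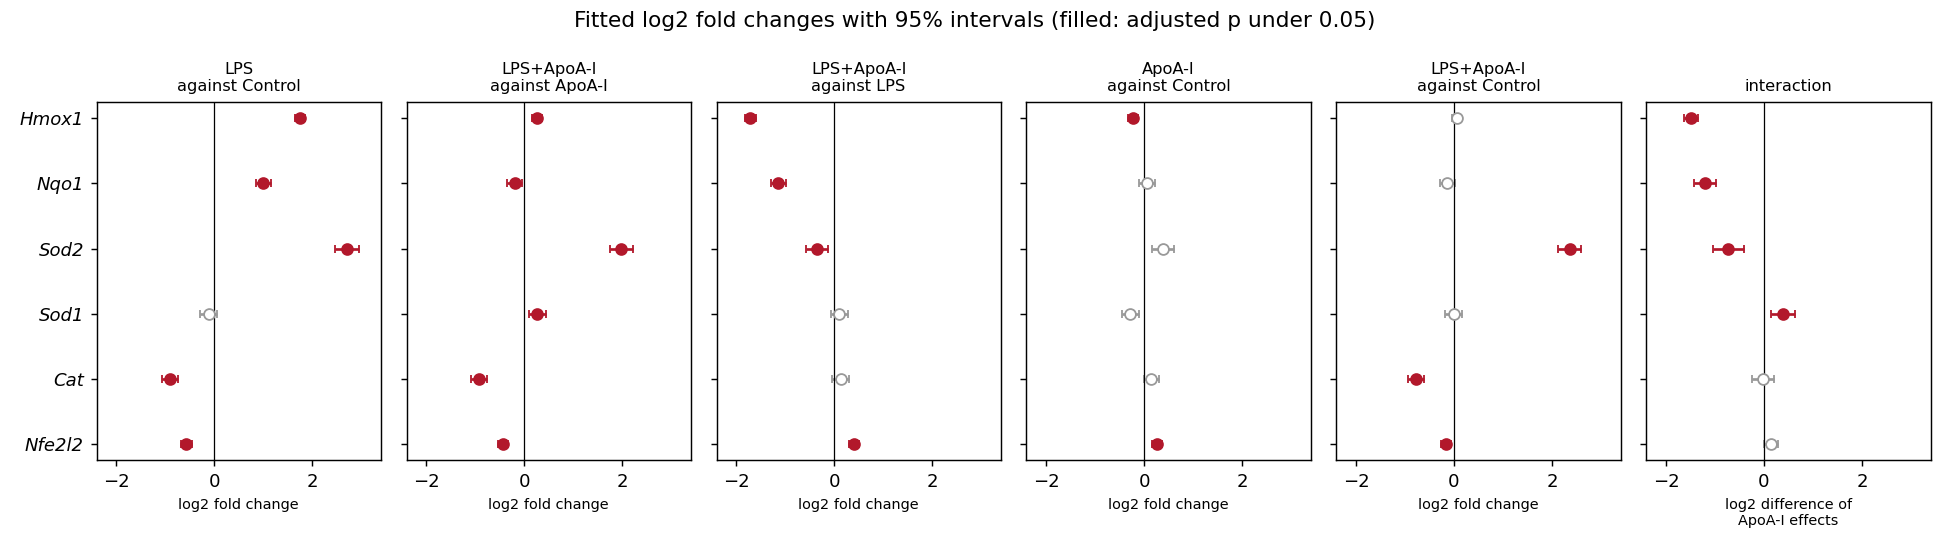
Log2 fold changes (horizontal axis) of the 6 genes in 5 comparisons and the interaction, with 95% intervals; filled red points passed an adjusted p under 0.05 and open grey points did not. Hmox1 and Nqo1 lay at 1.76 and 1.01 for LPS against Control but at 0.27 and -0.20 for LPS+ApoA-I against ApoA-I, whereas Sod2 lay at 2.71 and 1.98; with other scalings the value of Hmox1 for LPS+ApoA-I against ApoA-I was below 0, as was that of Sod1.

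An interaction term, the ApoA-I effect with LPS minus that without it, tested the difference itself. It was called in 4 members, against 41.0% of all tested genes (20.8% positive and 20.2% negative). For Hmox1 the term was -1.49 on the log2 scale (SE 0.07, edgeR adjusted p = 4.23e-13) and for Nqo1 -1.20 (SE 0.11, edgeR adjusted p = 7.88e-09). Sod2 had -0.73 (SE 0.15, edgeR adjusted p = 0.000617). Sod1 had 0.38 (SE 0.12, edgeR adjusted p = 0.0131), which was not called with the share of the 8 co-varying genes as a covariate (0.23, edgeR adjusted p = 0.143). The interaction of Cat was -0.02 (95% interval -0.25 to 0.21, edgeR adjusted p = 0.912). That of Nfe2l2 was 0.14 (95% interval -0.01 to 0.29, edgeR adjusted p = 0.124); it was called with library totals only (0.24, edgeR adjusted p = 0.035), on log2(TPM + 1) (0.22, limma adjusted p = 0.0478) and without ApoA-I 2 (0.18, edgeR adjusted p = 0.0453), and was 0.08 with the share covariate (edgeR adjusted p = 0.436). With TMM the median interaction was -0.37 over the members and 0.04 over all genes. Over all genes it was higher by the other scalings, 0.13 with library totals only and 0.07 on log2(TPM + 1).

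Without LPS, ApoA-I raised Nfe2l2 and lowered Hmox1, 2 of the 6 members, where 4.27% of tested genes were called, 2.50% higher and 1.77% lower. Hmox1 had 155, 168, 156 and 181 CPM in ApoA-I libraries, all below the Control libraries, with a log2 fold change of -0.22 (SE 0.05, edgeR adjusted p = 0.0125). It was not called with library totals only (-0.16, edgeR adjusted p = 0.177), on log2(TPM + 1) (-0.15, limma adjusted p = 0.133), when only these groups were fitted (-0.22, edgeR adjusted p = 0.0873) or without the library ApoA-I 1 (-0.19, edgeR adjusted p = 0.0555). Nqo1 had 56.1, 64.0, 55.4 and 53.8 CPM in ApoA-I libraries, overlapping Control (0.06, 95% interval -0.09 to 0.22, edgeR adjusted p = 0.735). With TMM the median was 0.11 over the members and -0.00028 over all genes. Over all genes it was 0.06 both with library totals only and on log2(TPM + 1).

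LPS+ApoA-I against Control compared the cells given both agents with untreated ones. Sod2 was higher (2.36, SE 0.11, edgeR adjusted p = 3.15e-14), and Cat (-0.77, SE 0.08, edgeR adjusted p = 7.42e-09) and Nfe2l2 (-0.16, given above) were lower, 3 of the 6 members, where 69.6% of tested genes were called, 34.4% higher and 35.2% lower. Sod1 differed by -0.01 (95% interval -0.18 to 0.16, edgeR adjusted p = 0.943). With library totals only and on log2(TPM + 1) all 6 were called, 5 of them lower. By those scalings 8273 and 8278 of the 11902 tested genes were called, 5692 and 5981 of them lower. With TMM the median was -0.07 over the members and -0.01 over all genes.

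Per transcript length, Sod2 led in every group and Cat came last. In LPS+ApoA-I libraries the order was Sod2 (1575 ± 46.7 TPM), Sod1 (235 ± 7.68), Hmox1 (209 ± 8.57), Nfe2l2 (91.0 ± 5.36), Nqo1 (53.7 ± 4.22) and Cat (16.7 ± 1.70), with no overlap between neighbours. In LPS libraries Hmox1 (620 ± 22.3 TPM) stood above Sod1 (201 ± 9.12) and Nqo1 (108 ± 5.05) above Nfe2l2 (61.9 ± 2.52), with Sod2 at 1820 ± 85.1 and Cat at 13.8 ± 1.59, again without overlap. By their means, both pairs stood in the opposite order in every other group. In ApoA-I libraries Sod2 had 510 ± 78.6, Sod1 255 ± 12.2, Hmox1 222 ± 14.0, Nfe2l2 155 ± 9.95, Nqo1 79.7 ± 4.13 and Cat 40.5 ± 2.48 TPM, and Sod1 overlapped with Hmox1. In Control libraries Sod2 had 374 ± 78.6, Sod1 290 ± 33.8, Hmox1 246 ± 10.4, Nfe2l2 123 ± 5.81, Nqo1 72.3 ± 8.17 and Cat 34.8 ± 2.92 TPM, and Sod2 overlapped with Sod1 and Sod1 with Hmox1 (all SD, n = 4 each).

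**Figure D4:**
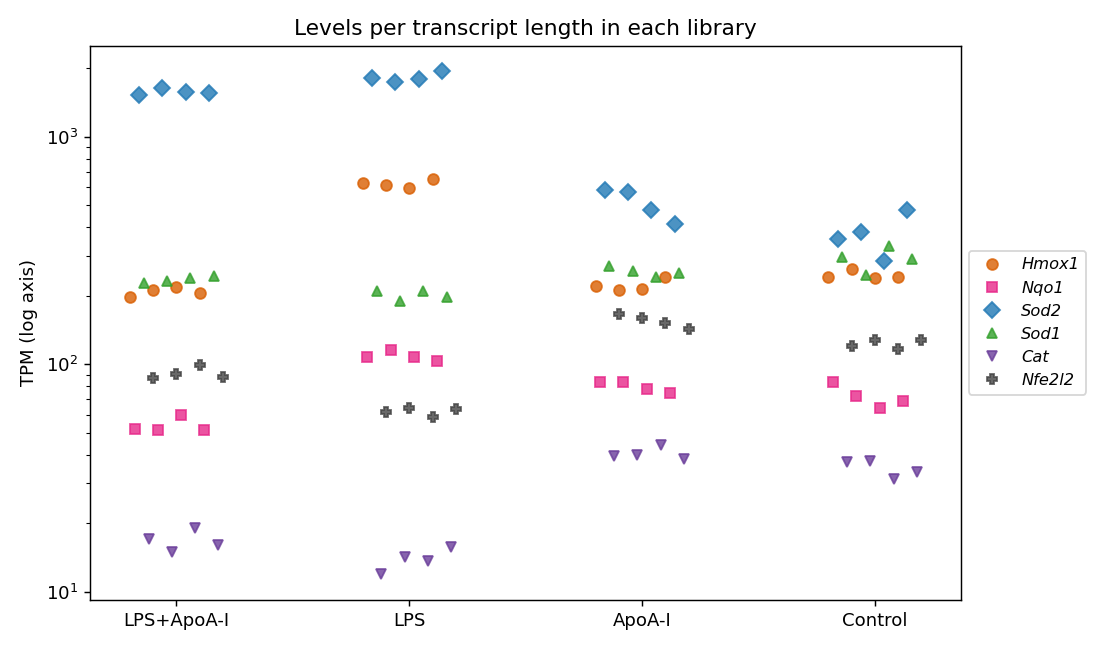
TPM of each gene in each library on a log axis, by group. Hmox1 lies above Sod1, and Nqo1 above Nfe2l2, in LPS libraries; in LPS+ApoA-I libraries Hmox1 lies below Sod1 and Nqo1 below Nfe2l2, with Sod2 on top from 1531 to 1941 TPM in both groups.

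For each member, the other tested gene of at least 5 mean CPM with the most similar profile was found by Pearson's r of log2 CPM over the 16 libraries, among 9340 candidates. Such an r includes the differences between groups. The highest r was 0.996 for Sod2 (ENSRNOG00000009331), 0.989 for Hmox1 (ENSRNOG00000014956), 0.985 for Cat (ENSRNOG00000001585) and 0.976 for Nfe2l2 (ENSRNOG00000006418). The gene most like Hmox1 had 489 ± 15.1 CPM in LPS+ApoA-I, 998 ± 38.1 in LPS, 405 ± 16.6 in ApoA-I and 428 ± 13.1 in Control libraries (SD, n = 4 each). The best r was 0.982 for Nqo1 and 0.910 for Sod1. An r above 0.95 was reached by 865 genes for Sod2, 439 for Cat, 133 for Hmox1, 33 for Nqo1, 16 for Nfe2l2 and 0 for Sod1.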

How the data were processed

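The authors deposited expected counts, estimated per gene and not normalized, and TPM, scaled for transcript length and library size. Tools named in the submitters' processing notes are RSEM 1.3.1, STAR 2.7.10b and cutadapt 1.8.1. The build named there is mm10, a mouse genome, although the 30560 identifiers all carry a rat prefix; no source used here gives the annotation. Whether this bears on any count could not be checked. The 96 member counts were whole by a tolerance of 0.005; all counts were rounded. Genes were kept by filterByExpr (minimum count 10), and all 16 libraries fitted with group means, TMM and the quasi-likelihood test of edgeR 4.0.16 (R 4.3.3), with 12 residual degrees of freedom; SE is the absolute log2 fold change over the square root of F. TPM were tested with limma 3.58.1 on log2(TPM + 1), and counts also with DESeq2 1.42.0; scripts were tested on simulated data. Ratios, as log2((Sod2 count + 0.5)/(Sod1 count + 0.5)), were compared by two-sided exact permutation; within-group relations used 100000 permutations within groups. The 8 co-varying genes have at least 1000 mean CPM and a within-group r above 0.95 with the most abundant gene.

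All 6 members are named in every comparison. Members, lists and tests were chosen with earlier results of these data known. The planned lists of other pathway genes and cell type markers could not be used, as no identifier could be looked up. No 2 replicates agreed within sampling noise: over 24 pairs, chi-square divided by its degrees of freedom was 3.10 to 92.3.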

Additional observations from a re-analysis of the deposited data

Results flagged for a closer look

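The interaction was called in 4 of the 6 genes, where 41.0% of all tested genes were called: Hmox1 (-1.49 log2 units), Nqo1 (-1.20), Sod2 (-0.73) and Sod1 (0.38). In Sod1 the call was lost with the share of the 8 co-varying genes as a covariate.

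The Sod2 level of the library LPS+ApoA-I 2, 4551 CPM, stood apart from the other 3 libraries of its group, which lay between 4201 and 4247 CPM; the gap was 0.869 of the group's range, past Dixon's 95% critical value. The Nqo1 level of LPS+ApoA-I 3, 55.0 CPM, stood above 47.65 to 48.9 CPM in the other 3, with a gap of 0.831 of the range in CPM; on the log2 scale the gap was 0.82 of the range, just within Dixon's critical value. These were 2 of 28 groups of 4 values (6 genes and the Sod2 to Sod1 ratio in 4 groups), and chance gives about 1 in 20 on a single scale. A group was flagged if it passed on either the linear or the log2 scale, so chance gives somewhat more. The ratio also reuses the values of Sod1 and Sod2.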

How the results depend on the processing

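The calls of LPS against Control and of LPS+ApoA-I against LPS for Hmox1, Nqo1 and Nfe2l2 kept their direction and side of the threshold under all 26 alternatives. Small changes depended on scaling. Of the genes called in LPS against Control, 48.6% were higher under TMM, 25.5% under library totals and 23.6% on log2(TPM + 1); the shares in that order were 51.4%, 71.8% and 69.9% for LPS+ApoA-I against LPS, 49.8%, 26.7% and 22.4% for LPS+ApoA-I against ApoA-I, 49.4%, 31.2% and 27.7% for LPS+ApoA-I against Control, 58.5%, 83.1% and 81.6% for ApoA-I against Control and 50.7%, 65.1% and 60.4% for the interaction.

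With library totals, log2(TPM + 1) and log2(TPM + 0.1), values reversed for Hmox1 in LPS+ApoA-I against ApoA-I (-0.019, -0.089 and -0.090) and against Control (-0.18, -0.24 and -0.24), Sod1 in LPS+ApoA-I against ApoA-I (-0.017, -0.11 and -0.11) and the interaction of Cat (0.074, 0.045 and 0.056). Leaving out 1 library reversed uncalled values near 0, Sod1 in LPS+ApoA-I against Control (-0.094 to 0.075) and the interaction of Cat (-0.072 to 0.028). The cause was not tested.

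ApoA-I against Control was the least stable: 508 genes were called, against 806 with DESeq2, 310 and 238 on log2(TPM + 1) and log2(TPM + 0.1), 94 with only these groups fitted, 224 with the share covariate and 186 to 775 leaving out 1 library (of the Control libraries 284 without number 1, 325 without number 2, 202 without number 3 and 775 without number 4, and 186 without ApoA-I 1). Members called there were 2, against 4 with DESeq2 or no filter, 1 on either TPM scale, 0 with only these groups fitted in edgeR (4 at an unadjusted p under 0.05) and 1 to 3 leaving out 1 library. Members called in LPS+ApoA-I against Control were 3, against 6 with library totals or either TPM scale. Of the 11902 tested genes 8284 were called there with TMM, 8273 with library totals, and 8278 and 8249 on log2(TPM + 1) and log2(TPM + 0.1). Leaving out 1 library gave 5 to 6 members called in LPS against Control, 5 to 6 in LPS+ApoA-I against ApoA-I, 3 to 4 in LPS+ApoA-I against Control, 4 in LPS+ApoA-I against LPS and 4 to 5 in the interaction.

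The Sod2 to Sod1 ratio kept its direction. With a replicate block (sign changes of 4 same-numbered differences), the 5 differences stayed 2.83, 0.66, -0.45, 1.72 and 2.38 with an exact permutation p of 0.125, the smallest that 4 pairs allow. Leaving out 1 of their libraries, where the exact test cannot pass, they ranged from 2.65 to 2.95 for LPS against Control, 0.47 to 0.78 for ApoA-I against Control, -0.48 to -0.42 for LPS+ApoA-I against LPS, 1.64 to 1.76 for LPS+ApoA-I against ApoA-I and 2.19 to 2.50 for LPS+ApoA-I against Control. Same-numbered samples were little alike in their deviations from group means: 3 of 24 same-numbered pairs had a correlation over 0.1 (median 0.000882), and 4 of 16 libraries correlated best with their own number. Low correlation does not show that the samples were unpaired. In edgeR the block changed no member's call and gave 8850 genes called for LPS and 469 for ApoA-I (each against Control), 6075, 8231 and 8241 for LPS+ApoA-I against LPS, ApoA-I and Control, and 4808 for the interaction.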
